A study of Homo sapiens with 9 samples.

Results

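The genes described here are 10 components of bone morphogenetic protein (BMP) signalling, taken from an expression array study of a lung cancer cell line. They were the ligands BMP2 and BMP4, the receptors BMPR1A and BMPR2, the SMAD proteins SMAD6 and SMAD9, and the inhibitor of DNA binding genes ID1, ID2, ID3 and ID4. Every non-control probe whose RefSeq transcript belongs to one of these genes was taken, with no reference to its measured value. This gave 16 probes for 10 of the 21743 genes that received a name, among 50599 probes on the array. All but 1 of the 16 probes were detected on all 9 arrays.

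Total RNA of 9 samples, 3 in each of 3 groups, was hybridised to single-colour Agilent arrays. Parental A549 cells, an untransduced human lung adenocarcinoma line, were at passages P98, P98 and P99. OSK-A549-Colony cells were A549 cells that carried pMXs retroviral vectors for OCT3/4, SOX2 and KLF4 and grew as compact colonies, at passages P106, P107 and P106. OSK-A549-SN cells, at the same passages P106, P107 and P106, carried the same 3 factors and were the spindle-shaped cells around those colonies, which trypsin released first. The study's methods place the RNAs in independent transduction experiments of the 1 cell line, and no array of empty-vector cells was part of the comparisons. Every transduced array had a higher passage number than every parental array, so passage and transduction cannot be told apart.

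BMPs are secreted ligands of the TGF-beta family. They assemble a complex of type I receptors such as BMPR1A and the type II receptor BMPR2, which phosphorylates SMAD1, SMAD5 and SMAD9, and these enter the nucleus together with SMAD4. ID1, ID2 and ID3 are classical direct targets of that complex. The ID proteins have a helix-loop-helix domain but no DNA-binding region, and they hold E proteins such as TCF3 away from DNA, which in many tissues delays differentiation. SMAD6 is itself a BMP target and inhibits the pathway as a feedback regulator. In the lung, BMP4 is known for its part in the branching of the distal airway epithelium.

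The promoters of BMP4, SMAD6, ID1 and ID3 are shown because these are the members whose levels differed among the 3 groups in the test given below. Each sequence is the 250 bases before an annotated transcription start in RefSeq (GRCh38.p14), written 5′ to 3′ on the strand of the gene. Capitals mark 2 letter strings searched on both strands, GGCGCC, the GC-rich element that SMAD1 and SMAD5 bind, and GTCTAGAC, a pair of SMAD boxes. These strings do not overlap one another in the sequences. BMP4 has several listed starts, and the one shown is the only one whose promoter holds a marked string.
BMP4, chr14:53955051-53955300, - strand: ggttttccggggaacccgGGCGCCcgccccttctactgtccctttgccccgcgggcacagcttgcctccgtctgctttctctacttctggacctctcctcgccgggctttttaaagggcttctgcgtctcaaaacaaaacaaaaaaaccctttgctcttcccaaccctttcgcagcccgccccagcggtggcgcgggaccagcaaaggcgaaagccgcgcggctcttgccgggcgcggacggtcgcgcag
SMAD6, chr15:66701986-66702235, + strand: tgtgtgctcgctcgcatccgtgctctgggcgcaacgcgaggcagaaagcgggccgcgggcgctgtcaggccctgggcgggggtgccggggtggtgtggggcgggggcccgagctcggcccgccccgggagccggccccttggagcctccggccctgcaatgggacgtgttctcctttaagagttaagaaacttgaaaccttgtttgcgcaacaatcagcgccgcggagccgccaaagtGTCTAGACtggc
ID1, chr20:31605039-31605288, + strand: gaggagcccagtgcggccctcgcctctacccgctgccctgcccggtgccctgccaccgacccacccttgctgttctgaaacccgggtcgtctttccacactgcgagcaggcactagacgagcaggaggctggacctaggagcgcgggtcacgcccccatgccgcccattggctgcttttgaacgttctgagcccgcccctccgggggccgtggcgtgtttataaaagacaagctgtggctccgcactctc
ID3, chr1:23559502-23559751, - strand: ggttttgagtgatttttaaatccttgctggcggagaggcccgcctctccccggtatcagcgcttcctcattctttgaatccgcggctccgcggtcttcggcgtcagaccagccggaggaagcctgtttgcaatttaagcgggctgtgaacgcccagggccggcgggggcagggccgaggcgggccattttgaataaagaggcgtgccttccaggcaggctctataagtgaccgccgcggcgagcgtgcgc

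RefSeq promoters were matched for 9 of the 10 genes, with 3 starts listed for BMP4 and 11 promoters in all. Over windows of 250 bases before and 50 bases from the start on, GGCGCC was found in 2 of the 11, against 19.2% of 35116 promoters. It lay at position -147 of BMPR2 and at positions -232 and 2 of the BMP4 start shown, counted to its first base from the start. The other listed BMP4 starts held neither string. GTCTAGAC was found in 1 of the 11, at position -12 of SMAD6, against 0.202% of all promoters. Neither string was in these windows of ID1, ID2, ID3 or ID4. Such a match is a description of the letters and no measurement of binding.

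All levels below are log2 signal relative to the 75th percentile of the array, so a value of 0 is the level that 75% of probes lie under. Pairs of groups were compared with limma on their 6 arrays. A probe was called where its p-value, adjusted by Benjamini-Hochberg over all probes tested, was under 0.05 and its fold change was over 2. Replicate scatter was widest in parental cells, with a median SD over probes of 0.21, against 0.09 for OSK-A549-Colony cells and 0.16 for OSK-A549-SN cells. Only 3 arrays per group limit the precision of each value, and in bulk RNA fewer cells that express a gene and less RNA per cell cannot be told apart. Within the groups r between arrays was 0.983 or more over probes detected on all 9 arrays. OSK-A549-SN replicate 3 was hybridised alone on a second slide, whereas the other 8 arrays shared 1 slide. The transduced factor KLF4 was called higher in OSK-A549-Colony cells (log2 fold change 2.77, limma adjusted p = 0.0373), a call lost without any 1 of the 6 arrays. SOX2 was at -0.18 and the leading POU5F1 probe at -0.42 in the same comparison, while a second POU5F1 probe was at 2.21, and none of these passed the test.

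BMP4 was lower in both transduced populations than in parental cells, and it was the only one of the 10 genes called in any comparison. Its calls depended on single arrays. Of all probes tested, 3.70% were called in OSK-A549-Colony cells and 1.55% in OSK-A549-SN cells against parental cells. SMAD6, SMAD9, ID1 and ID3 lay lower on each of the 6 transduced arrays than on each parental array, by less than the 2-fold threshold. SMAD9 was near the lower end of the signal. Of all probes tested, 20.7% lay below parental cells without overlap in OSK-A549-Colony cells, and 15.3% in OSK-A549-SN cells. ID2, BMPR1A and BMPR2 had no difference past the test. BMP2 was spread widely between OSK-A549-Colony replicates. ID4 was spread widely in both transduced populations, with the same order of replicates in each group. Neither BMP2 nor ID4 passed the test. None of the genes was called between the transduced populations, and neither was any other of the 31742 probes tested.

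Of the ligands, BMP4 (chromosome 14) was measured by 1 probe, which was well above background on all 9 arrays. Its level was 1.38, 1.53 and 1.59 on the parental arrays of replicates 1 to 3. It was 0.17, 0.40 and 0.32 in OSK-A549-Colony cells. The OSK-A549-SN arrays gave 0.52, 0.67 and 0.26. The lowest parental array therefore lay above the highest of the 6 transduced arrays, and the transduced groups overlapped each other. The level in OSK-A549-Colony cells was 43.4% of the parental level, a log2 fold change of -1.21 (SE 0.12, 95% interval -1.49 to -0.92, limma adjusted p = 0.0155). In OSK-A549-SN cells it was 49.5% of the parental level, a log2 fold change of -1.01 (SE 0.16, 95% interval -1.40 to -0.63, limma adjusted p = 0.0461), just past the fold threshold. The difference between the transduced populations was -0.19 with a 95% interval of -0.53 to 0.15 (limma adjusted p = 0.462).

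The direction of BMP4 was the same in all alternatives, whereas its calls depended on single arrays. In OSK-A549-Colony cells the call was lost without parental replicate 2 and without any 1 of the 3 OSK-A549-Colony arrays, with adjusted p between 0.0577 and 0.0946 from limma and log2 fold changes of -1.26 to -1.14. In OSK-A549-SN cells it was lost without any 1 of the 6 arrays, with log2 fold changes of -1.11 to -0.90, the latter without the array on the second slide. That call was also lost with normexp background correction (log2 fold change -0.90), with no detection filter (limma adjusted p = 0.0710) and with slide as a block (limma adjusted p = 0.0874). With replicate number as a block both calls were lost, with a limma adjusted p of 0.118 in OSK-A549-Colony cells. Across all 3 groups BMP4 passed limma's F test on the 9 arrays (adjusted p = 0.00771), and it did so in all 16 alternatives, the removal of each array among them.

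BMP2 (chromosome 20), a ligand closely related to BMP4, behaved differently on the arrays. Its level was -2.02, -2.12 and -2.06 in parental cells. In OSK-A549-Colony cells it was -0.85, -3.32 and -2.60, so that replicate 1 lay above and replicates 2 and 3 below every parental array. The OSK-A549-SN arrays, at -2.55, -2.60 and -2.29, lay below all parental arrays. The SD of BMP2 was 1.27 in OSK-A549-Colony cells against 0.05 in parental cells. Against parental cells, OSK-A549-Colony cells gave a log2 fold change of -0.19 with a 95% interval of -1.73 to 1.35, which turned to 0.34 without OSK-A549-Colony replicate 2. The corresponding value in OSK-A549-SN cells was -0.41 (SE 0.14, limma adjusted p = 0.171). The spread between OSK-A549-Colony replicates therefore leaves a difference of either sign within the interval.

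The receptors showed small positive values that did not pass the test. BMPR1A (chromosome 10), a type I receptor that BMP2 and BMP4 bind, was measured by 5 probes. The leading probe, which is the one with the highest mean, was at 1.69, 1.53 and 1.33 in parental cells. It was at 1.67, 1.69 and 1.63 in OSK-A549-Colony cells and at 1.61, 1.54 and 1.67 in OSK-A549-SN cells. Over the 5 probes the log2 fold change was 0.15 to 0.39 in OSK-A549-Colony cells and 0.06 to 0.37 in OSK-A549-SN cells. All 5 probes therefore gave the same sign against parental cells in both populations, and their adjusted p values from limma were 0.196 or more. The probes share 1 transcript and are no replicates of one another. In OSK-A549-SN cells, 2 of the 5 turned negative without parental replicate 3, which was the lowest array for each BMPR1A probe.

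BMPR2 (chromosome 2), the type II receptor of BMPs, was at -1.77, -1.84 and -2.70 in parental cells. Its level was -1.73, -1.82 and -1.73 in OSK-A549-Colony cells and -1.94, -2.19 and -1.70 in OSK-A549-SN cells. Parental replicate 3 stood apart as the lowest value, and the other 2 parental arrays lay within the range of the transduced arrays. BMPR2 was 0.35 higher than in parental cells on the log2 scale in OSK-A549-Colony cells (95% interval -0.31 to 1.00) and 0.16 in OSK-A549-SN cells (95% interval -0.56 to 0.88). Without parental replicate 3 these values were 0.047 and -0.14. These intervals do not show equal levels, since they hold differences of up to about the fold threshold.

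SMAD6 (chromosome 15), the inhibitory SMAD whose promoter is shown above, was at 3.76, 4.05 and 4.27 in parental cells. It was at 3.19, 3.34 and 3.46 in OSK-A549-Colony cells and at 3.25, 3.36 and 3.34 in OSK-A549-SN cells. Each transduced array lay below each parental array, and the transduced populations overlapped. SMAD6 had log2 fold changes of -0.70 in OSK-A549-Colony cells (SE 0.16, limma adjusted p = 0.0572) and -0.71 in OSK-A549-SN cells (SE 0.17, limma adjusted p = 0.0927). Both values missed the threshold. The F test over the 9 arrays passed (adjusted p = 0.0301), and it passed in 8 of 16 alternatives. Between the transduced populations the difference was 0.02 with a 95% interval of -0.24 to 0.27.

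SMAD9 (chromosome 13), the receptor-activated SMAD also called SMAD8, was near the lower end of what the array measured. Its leading probe was at -2.31, -2.88 and -2.80 in parental cells. It was at -3.27, -3.23 and -3.11 in OSK-A549-Colony cells and at -3.37, -3.48 and -3.26 in OSK-A549-SN cells. All transduced arrays were below all parental arrays. Log2 fold changes were -0.54 in OSK-A549-Colony cells (SE 0.18, limma adjusted p = 0.111) and -0.71 in OSK-A549-SN cells (SE 0.19, limma adjusted p = 0.117), and the F test gave an adjusted p of 0.0534. With normexp background correction the values were -0.21 and -0.23, and the adjusted p of the F test was 0.191. Its second probe was well above background on 1 of the 9 arrays, and no fold change is given for it.

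Of the 4 ID genes, ID1 and ID3 passed the adjusted p in OSK-A549-Colony cells, and none of the 4 did in OSK-A549-SN cells. ID1 (chromosome 20) was at 7.22, 7.37 and 7.32 in parental cells. It was at 6.66, 6.72 and 6.43 in OSK-A549-Colony cells and at 6.90, 6.90 and 6.84 in OSK-A549-SN cells. The 3 groups did not overlap, with parental cells highest, OSK-A549-SN cells between and OSK-A549-Colony cells lowest. The log2 fold change in OSK-A549-Colony cells was -0.70 (SE 0.12, 95% interval -0.995 to -0.41, limma adjusted p = 0.0324), so that the adjusted p passed and the 1.63-fold difference did not. For OSK-A549-SN cells the value was -0.43 (SE 0.12, 95% interval -0.72 to -0.14, limma adjusted p = 0.123). OSK-A549-Colony cells differed from OSK-A549-SN cells by -0.27 (95% interval -0.53 to -0.02), which missed the threshold after adjustment (limma adjusted p = 0.238).

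ID3 (chromosome 1) had a similar order. Its level was 5.19, 5.20 and 5.25 on the parental arrays, the closest agreement of any member in that group. It was 4.48, 4.35 and 4.15 in OSK-A549-Colony cells and 4.84, 4.78 and 4.31 in OSK-A549-SN cells. Each transduced array was below each parental array, and OSK-A549-SN replicate 3 lay within the range of OSK-A549-Colony cells. The OSK-A549-Colony mean of ID3 was 0.89 log2 units under the parental mean, a log2 fold change of -0.89 (SE 0.12, 95% interval -1.18 to -0.59, limma adjusted p = 0.0235), a 1.85-fold difference. In OSK-A549-SN cells it was -0.57 (SE 0.18, limma adjusted p = 0.149), and -0.40 without replicate 3 on the second slide. The difference between the transduced populations was -0.32 (95% interval -0.76 to 0.13).

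Both genes passed the F test over the 9 arrays, with an adjusted p of 0.0192 for ID1 and 0.0295 for ID3. ID1 passed in 12 of 16 alternatives and ID3 in 7 of 16. In OSK-A549-Colony against parental cells, the adjusted p was under 0.05 in 7 of 13 alternatives for ID1 and in 8 of 13 for ID3. For both genes it was lost without parental replicate 2 and without any 1 of the OSK-A549-Colony arrays, whereas the log2 fold change stayed between -0.76 and -0.62 for ID1 and between -0.96 and -0.80 for ID3. Both also lost it with replicate number as a block (limma adjusted p = 0.133 for ID1 and 0.123 for ID3). ID1 lost it with no detection filter as well (limma adjusted p = 0.0722).

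ID2 (chromosome 2) did not follow ID1 and ID3. Its leading probe was at 4.88, 4.82 and 4.47 in parental cells. It was at 4.85, 5.02 and 4.89 in OSK-A549-Colony cells and at 4.84, 4.75 and 4.57 in OSK-A549-SN cells. Parental and OSK-A549-SN arrays covered nearly the same range, and the OSK-A549-Colony arrays overlapped the parental arrays but lay above all OSK-A549-SN arrays. The log2 fold change against parental cells was 0.20 in OSK-A549-Colony (95% interval -0.16 to 0.55) and -0.0048 in OSK-A549-SN cells (95% interval -0.41 to 0.40). The second ID2 probe gave 0.18 and 0.08. The interval for OSK-A549-Colony cells does not reach the values measured for ID1 or ID3, although the difference between these genes was not tested.

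ID4 (chromosome 6), which in some tissues opposes the other ID proteins, had an SD of 0.35 in parental cells, 0.67 in OSK-A549-Colony cells and 0.78 in OSK-A549-SN cells, the last the widest of the 10 leading probes in that group. It was at 1.13, 0.83 and 0.44 in parental cells. It was at 0.54, -0.37 and -0.77 in OSK-A549-Colony cells and at 0.25, -0.76 and -1.28 in OSK-A549-SN cells. OSK-A549-SN cells lay below all parental arrays, and OSK-A549-Colony replicate 1 overlapped them. ID4 had log2 fold changes of -1.0 in OSK-A549-Colony cells (SE 0.38, limma adjusted p = 0.147) and -1.40 in OSK-A549-SN cells (SE 0.42, limma adjusted p = 0.139). These differences were about as large as those of BMP4, and neither passed the test.

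Counted over the member probes, 1 of 15 tested was called in OSK-A549-Colony against parental cells, where 3.70% of 30859 probes were called. By adjusted p without the fold threshold, 3 of 15 passed (BMP4, ID1 and ID3), against 9.02% of all probes. For 5 of 15 the OSK-A549-Colony arrays lay below every parental array, against 20.7% of all probes, and 4 of 15, all of BMPR1A, lay above, against 20.9%. In OSK-A549-SN against parental cells, 1 of 16 was called against 1.55% of 32215 probes, and the same probe was the only one to pass the adjusted p alone, against 1.82%. Here 7 of 16 lay below without overlap, against 15.3% of all probes, and 1 of 16 above, against 16.8%. These 7 probes belonged to 7 of the 10 genes, all but BMPR1A, BMPR2 and ID2. Both comparisons used the same parental arrays.

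Comparing OSK-A549-Colony with OSK-A549-SN cells, 0 of 16 member probes were called by limma, as were 0 of 31742 probes in all (0%). At an unadjusted p under 0.05 it was 1 of 16, ID1, against 19.5% of all probes. ID1 was also the 1 probe lower without overlap, against 17.3% of all probes, and 3 were higher, of BMPR1A and ID2, against 13.5%. By the F test over the 3 groups 4 of 16 passed (BMP4, SMAD6, ID1 and ID3), against 11.4% of 33075 probes. The median log2 fold change of the 10 leading probes was -0.62 in OSK-A549-Colony cells and -0.50 in OSK-A549-SN cells, beside -0.030 and 0.077 for all probes tested. Over all member probes, 5 of them of BMPR1A, the median was 0.15 in OSK-A549-Colony cells and -0.21 in OSK-A549-SN cells, so that in the former its sign depended on counting genes or probes.

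**Figure D1:**
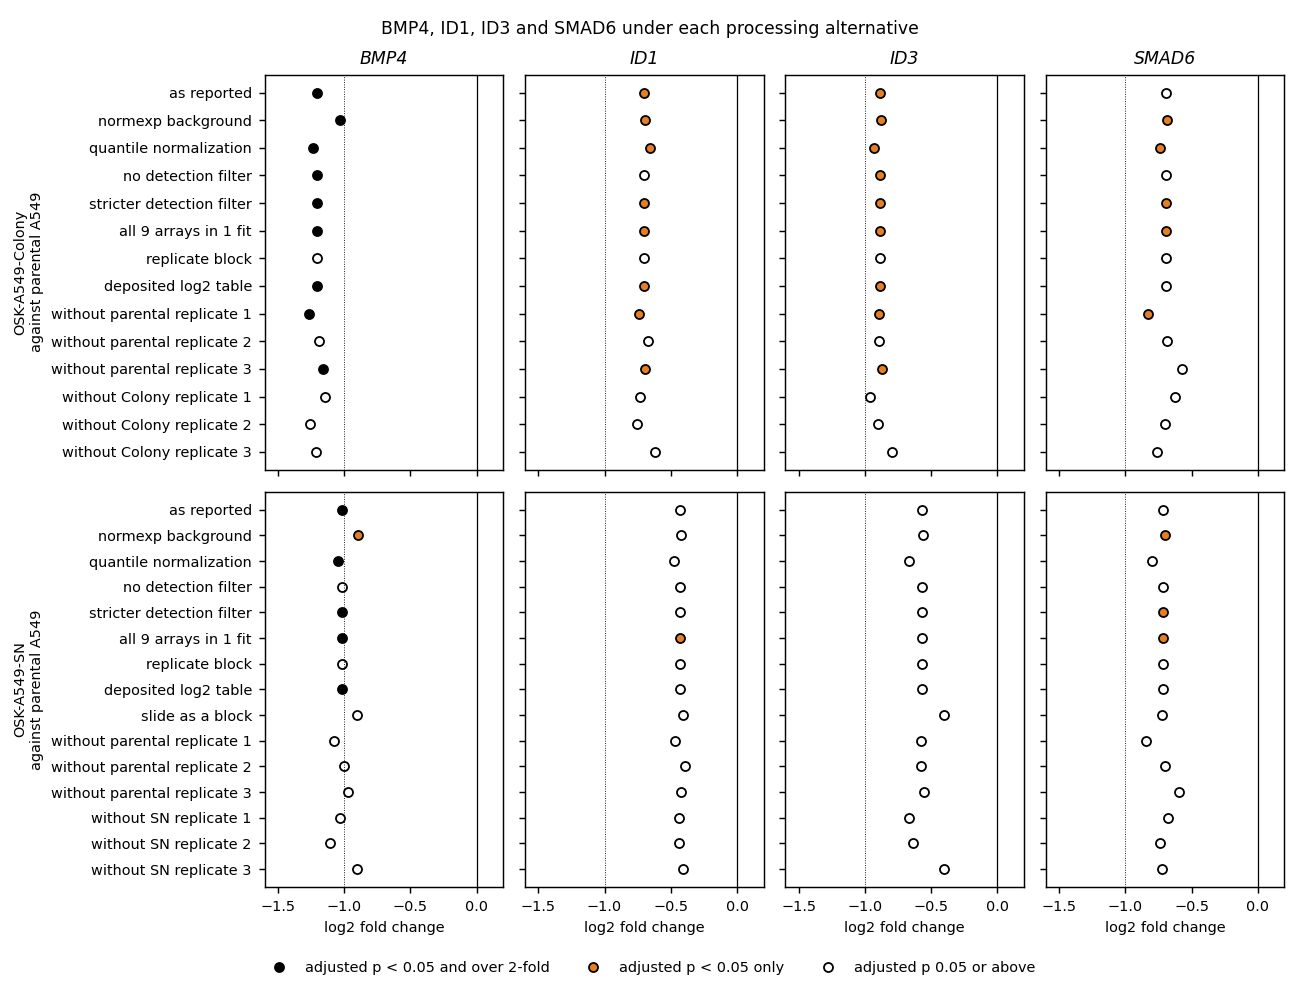
Log2 fold change (horizontal axis) of BMP4, ID1, ID3 and SMAD6 against parental A549 under each processing alternative and without each array (rows), for OSK-A549-Colony cells above and OSK-A549-SN cells below. All values are negative in every row, and the filling of the points shows that the adjusted p moves across 0.05 when single arrays are left out.

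The other genes of the pathway were taken from a list of 55 genes, of which 53 had a probe and 42 were detected on at least 1 array. In OSK-A549-Colony against parental cells, 1 of 38 tested genes was called higher and 1 lower, and in OSK-A549-SN cells 0 of 41 were higher and 1 lower. Of all probes tested, 3.70% and 1.55% were called in these comparisons. The transduced populations differed in 0 of 41 by the same rule, and 8 of 41 genes had an unadjusted p under 0.05 in limma, a share close to the 19.5% of all probes. The median log2 fold change of their leading probes was 0.054, 0.16 and -0.037 in the 3 comparisons. ATOH8 was the one called lower in both populations.

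ATOH8, a helix-loop-helix transcription factor and a direct target of BMP signalling, had larger log2 fold changes than any member. It was at -0.15, -0.06 and 0.46 in parental cells. It was at -1.23, -1.20 and -1.29 in OSK-A549-Colony cells and at -1.82, -2.06 and -2.61 in OSK-A549-SN cells. The 3 groups did not overlap, and the order of the transduced populations was the reverse of that of ID1. The log2 fold change against parental cells was -1.33 in OSK-A549-Colony cells (SE 0.18, limma adjusted p = 0.0244) and -2.25 in OSK-A549-SN cells (SE 0.27, limma adjusted p = 0.0323). The difference between the transduced populations was 0.92, with a limma adjusted p of 0.135. The first call was lost without parental replicate 2 or any 1 of the OSK-A549-Colony arrays, and the second without any 1 of the 6 arrays and with slide as a block (limma adjusted p = 0.0577). With normexp background correction the values were -0.91 in OSK-A549-Colony cells, under the fold threshold, and -1.36 in OSK-A549-SN cells. RUNX2, another target, was called higher in OSK-A549-Colony cells, but it stayed at background on all 3 parental arrays and was well above it on only 2 of the OSK-A549-Colony arrays, and its call was lost without the same arrays as that of ATOH8, with normexp background correction and with no detection filter. MSX1, a homeobox target of BMPs, passed the adjusted p alone in OSK-A549-Colony cells (log2 fold change 0.80, limma adjusted p = 0.0229) and was 0.65 higher in OSK-A549-SN cells (limma adjusted p = 0.0718).

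Among the other ligands, 0 of 5 tested were called in OSK-A549-Colony cells and 0 of 6 in OSK-A549-SN cells. BMP7, which is known to counter mesenchymal change in epithelia, had log2 fold changes of 0.57 and 0.74 at its leading probe, and a second, dimmer probe passed the adjusted p alone in OSK-A549-Colony cells (0.83, limma adjusted p = 0.0461). BMP6 was at -0.84 and -1.06 with an SD of 1.01 in OSK-A549-Colony cells, and GDF7 was at -0.31 and -0.15. Among the other receptors, the type II receptor ACVR2B passed the adjusted p alone in OSK-A549-Colony cells (-0.66, limma adjusted p = 0.0286) and was at -0.62 in OSK-A549-SN cells (limma adjusted p = 0.0640). The related ACVR2A was at 0.47 and 0.25. BMPR1B, another type I receptor, was at 0.03 and -0.49, and it differed by 0.52 between the transduced populations (limma adjusted p = 0.194).

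Of the other SMADs and their regulators, SMAD4, the partner of all receptor-activated SMADs, passed the adjusted p alone in OSK-A549-Colony cells at its leading probe (-0.61, limma adjusted p = 0.0343). Its 3 probes disagreed: the second gave -0.56 and the third 0.07. SMAD7, the inhibitory SMAD shared with TGF-beta signalling, was at 0.64 in OSK-A549-Colony (limma adjusted p = 0.0620) and 0.05 in OSK-A549-SN cells, which is opposite in sign to SMAD6 in the first. SKIL, a repressor of SMAD-driven transcription, was at 0.09 and -0.34. Of the secreted antagonists, NOG, which encodes noggin, stayed at background on all 3 parental arrays, was well above it on 2 OSK-A549-Colony arrays and on all 3 OSK-A549-SN arrays, and was at least 2.27-fold higher in OSK-A549-SN cells (limma adjusted p = 0.0769). That bound compares the OSK-A549-SN mean with the parental mean of the higher of each array's own value and its lowest value well above background. FSTL3, which binds activins and BMPs, was at 0.80 in OSK-A549-Colony cells (limma adjusted p = 0.0628). BAMBI, a decoy receptor of the TGF-beta family, was at 0.25 and -0.14 against parental cells and differed by 0.39 between the transduced populations (limma adjusted p = 0.179). The E proteins TCF3, TCF4 and TCF12, the partners that ID proteins bind, did not pass in any comparison. TCF3 was at -0.06 and 0.27 against parental cells, TCF4 at 0.29 and 0.37, and TCF12 at 0.21 and 0.10. The adjusted p of MSX1, ACVR2B and SMAD4 in OSK-A549-Colony cells rose above 0.05 without parental replicate 2 or any 1 of the OSK-A549-Colony arrays, and that of the BMP7 probe did so without any 1 of the 6 arrays. All of these also lost it with no detection filter and with replicate number as a block, and the BMP7 probe with normexp background correction. Over the alternatives the log2 fold change was 0.43 to 0.92 for MSX1 and 0.30 to 0.99 for the BMP7 probe.

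**Figure D2:**
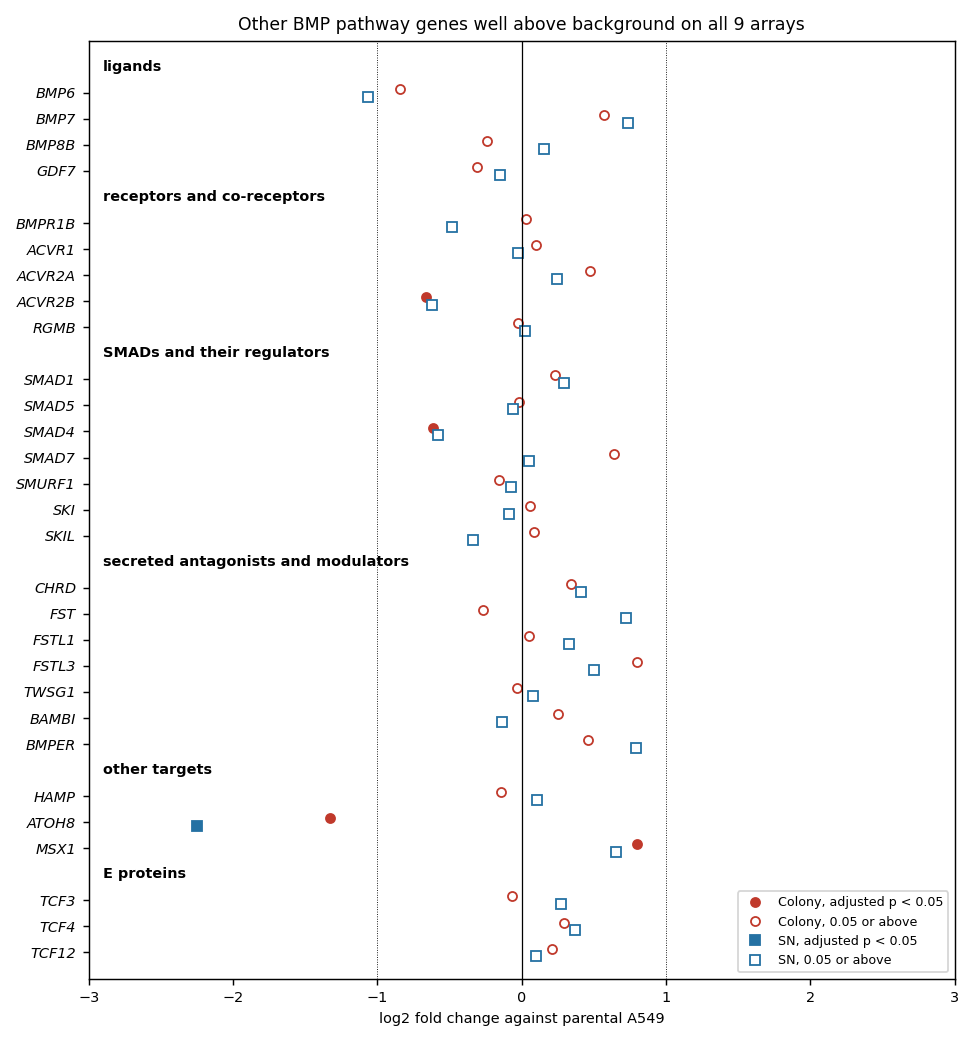
Log2 fold change against parental A549 (horizontal axis) of the 29 other pathway and E protein genes well above background on all 9 arrays, by role, as circles for OSK-A549-Colony and squares for OSK-A549-SN cells, filled where the adjusted p was under 0.05. Filled points are few, ATOH8 lies beyond a 2-fold decrease in both populations, and MSX1 in OSK-A549-Colony cells lies on the positive side.

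The label of the cells was checked against marker genes. All 6 epithelial markers (KRT7, KRT8, KRT18, KRT19, EPCAM and CDH1) were well above background on all 9 arrays. Their summed linear level relative to the array's 75th percentile was 1589 to 1790 in parental, 1486 to 1581 in OSK-A549-Colony and 1506 to 1847 in OSK-A549-SN cells. Against parental cells the markers had log2 fold changes of both signs in OSK-A549-Colony cells, with KRT19 at 1.18 (limma adjusted p = 0.0625), KRT7 at 0.15 and KRT8, KRT18 and EPCAM at -0.36, -0.24 and -0.38. CDH1, which encodes E-cadherin, passed the adjusted p alone in OSK-A549-Colony cells (log2 fold change -0.996, limma adjusted p = 0.0318), and not without parental replicate 2 or any 1 of the OSK-A549-Colony arrays. In OSK-A549-SN cells CDH1 was at -0.83 (limma adjusted p = 0.0860), below all parental arrays, EPCAM at -0.72 (limma adjusted p = 0.461) and KRT7 at 0.24. Of 8 fibroblast or mesenchymal stem cell markers only COL1A1 was detected, on 1 array of each group, and 7 stayed at background throughout. Of 5 endothelial markers 3 were detected, CDH5 and VWF on all 9 arrays and KDR on 1, whereas PECAM1 and TEK stayed at background throughout. Of 4 blood cell markers 3 were detected. CD14 and the leading PTPRC probe were well above background on all 9 arrays, while only 2 of 5 PTPRC probes were detected on any array. The summed level of the list was 2.67 to 7.81 in parental, 2.19 to 2.78 in OSK-A549-Colony and 3.36 to 4.36 in OSK-A549-SN cells. The part of these markers in the results of the BMP and ID genes was not tested.

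The probes with the pattern most like ID1, ID3 and BMP4 over the 9 arrays were sought among 18632 named probes detected on all of them. These values of r are descriptions over arrays that share the 3 groups and the scaling. ID1 was most like probes of OIP5-AS1 (r = 0.989), SNHG3 (r = 0.988) and TCP11L1 (r = 0.984). ID3 was most like another TCP11L1 probe (r = 0.989), TBC1D8 (r = 0.987) and GANC (r = 0.980). BMP4 was most like CKB (r = 0.993), LINC01023 (r = 0.992) and DPY19L2 (r = 0.990). ID1 and ID3 had r = 0.941 with each other, which placed ID3 at rank 100 among the probes compared with ID1, and BMP4 had r = 0.926 with ID1 and 0.930 with SMAD6.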

How the data were processed

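RNA of 9 samples was hybridised to single-colour Agilent SuperPrint G3 arrays. The authors deposited the scanner output of Agilent Feature Extraction, in which the processed intensity of each spot is background-subtracted and not scaled between arrays, and a table of log2 values per probe. Apart from 1 constant for each array, the deposited log2 table matched the values computed here to within 0.001. The study used GeneSpring GX.

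The processed intensity was put on the log2 scale, and control spots and spots with an outlier flag (463 to 717 of 62976 per array) were left out. Each probe took the mean of its spots, from which the array's 75th percentile (an intensity of 217.5 to 270.6) was subtracted. A probe was detected where a share of at least 0.5 of its spots was positive, significant and well above background, which held for 25808 to 29315 probes per array. No spot was saturated. Gene names came from RefSeq accessions, which named 30275 probes, so a probe that no accession named was not assigned to any gene.

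Groups came from the sample labels. Each comparison was fitted in R 4.3.3 by limma 3.58.1 (functions lmFit and eBayes, two-sided) on its 6 arrays, over probes that at least 1 of these arrays detected, and the F test used all 9 arrays. The fits were tested on simulated data. The genes, lists and tests were chosen with earlier results of these data known. All probes of the 10 genes are described, and from the other lists each gene with a called probe, or up to 3 per role with the smallest unadjusted p. The alternatives were normexp background correction with an offset of 50, quantile normalization, no filter and a stricter one, the replicate block, slide as a covariate, a joint fit of the 3 groups, the deposited log2 table, other thresholds and leaving out each array. For ATOH8 they were added after its values were seen. Protein sequences were not used here, and quantitative PCR, staining and organoid data were not analysed here. The pathway list leaves out 1 gene, which is not reported here.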

Additional observations from a re-analysis of the deposited data

How the results depend on the processing

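The number of arrays, 3 per group, limits these results, and calls moved with single arrays more often than directions did. SMAD9 and BMP2 lay near the dim end of the signal. The cause of each change listed here was not tested. All alternatives kept the sign of BMP4, SMAD6, SMAD9, ID1, ID3, ID4 and ATOH8 against parental A549.

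Over all probes, calls in OSK-A549-Colony against parental A549 numbered 2783 by adjusted p alone, 2038 by unadjusted p, 333 with normexp, 583 with no filter and 0 to 1362 without single arrays. For OSK-A549-SN against parental A549 they numbered 1879 by unadjusted p, 232 with normexp, 215 with no filter, 980 with the stricter filter, 1085 in the fit of all 9 arrays, 187 with slide as a block and 0 to 190 without single arrays. Between the transduced populations they numbered 662 by unadjusted p, 32 with normexp, 139 with the stricter filter and 9 in the fit of all 9 arrays. The F test passed 1978 probes with no filter, 5820 with the stricter filter and 986 to 3979 without single arrays.

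Of the member probes, OSK-A549-Colony against parental A549 gave 3 calls by adjusted p alone, 2 by unadjusted p and 0 to 1 without single arrays. OSK-A549-SN against parental A549 gave 2 by unadjusted p, 0 with normexp, with no filter and with slide as a block, and 0 without any single array. The F test passed 2 member probes with no filter and 1 to 4 without single arrays.

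Replicate numbers were shared by the groups. The correlation of same-numbered deviations was 0.0732 to 0.239 between the transduced populations, against -0.183 to 0.0296 for different numbers. It was -0.053 to -0.0070 between parental and OSK-A549-Colony cells and -0.20 to 0.15 between parental and OSK-A549-SN cells. The numbers were not taken as pairs, so the intervals and p-values between the transduced populations leave out a possible pairing of same-numbered arrays. With the replicate block, 0 probes and 0 member probes were called in each comparison, and the F test passed 1194 probes and 2 member probes, BMP4 and ID4.

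Changes of sign concerned values near 0 or with a wide spread. BMP2 in OSK-A549-Colony against parental A549 ranged from -0.89 to 0.34 without single arrays, and against OSK-A549-SN from -0.48 to 0.75. Against parental A549, OSK-A549-SN cells gave for the leading ID2 probe 0.0099 with normexp, 0.069 with slide as a block and -0.13 to 0.073 without single arrays, and for its second probe -0.017 with quantile normalization and -0.036 to 0.16 without single arrays. BMPR2 gave -0.0074 with normexp and -0.14 to 0.33 without single arrays. Of the BMPR1A probes, A_19_P00805548 ranged from -0.014 to 0.10 and A_33_P3219256 from -0.0028 to 0.18 without single arrays. In OSK-A549-Colony against OSK-A549-SN, BMPR1A A_24_P527404 ranged from -0.050 to 0.10 and SMAD6 from -0.049 to 0.088 without single arrays.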
